A study of Mus musculus with 16 samples.

Results

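Zscan4 (zinc finger and SCAN domain containing 4) is a family of near-identical genes, and its 6 members Zscan4a to Zscan4f were followed here from the unfertilized oocyte to the blastocyst. Every row of the array table whose annotation names a member was taken, a row being the summarised probe set of 1 transcript. This gave 7 rows of the 32814 that carry a gene symbol, and 6 of the 30184 symbols with a row of their own. Of the 7 rows, 6 name a member and nothing else. The other row names Zscan4f together with the predicted genes LOC100862415 and LOC100862413, and is called the Zscan4f shared row.

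The 16 whole-transcript arrays measured mouse MII oocytes and embryos at 7 further stages, on 2 hormonal backgrounds, with 1 array for each stage and background. On the superovulated background B6C3F1 females received 10 IU PMSG and, 48 h later, 10 IU hCG, whereas natural-cycle females received no hormones. On both backgrounds the embryos were sired by CD1 males, recovered as zygotes and cultured in KSOM(aa), and lysates were pooled by stage over 4 collection runs (3096 oocytes and embryos) with superovulation and 9 runs (989) without it. Each array took the equivalent of 20 oocytes or embryos. The superovulated females of the study were 6 to 8 weeks old, and the age of the natural-cycle females was not stated in the sources read here. Superovulated MII oocytes came from unmated females and natural-cycle MII oocytes from females mated with vasectomized males, so that mating and stimulation cannot be told apart at that stage. Because an array represents a pool of embryos and the stage has no replicate array, the spread in the tests is that between the backgrounds after a common shift, shared by 16 arrays.

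Mouse embryos start transcription of their own genome in a minor wave at the zygote stage and a major wave at the 2-cell stage, and Zscan4 is among the best known genes of that burst. Some members encode a full-length protein with an N-terminal SCAN domain, which mediates contacts between proteins, and C-terminal zinc fingers, whereas others encode shorter products. In mouse embryonic stem cells the family is switched on only now and then, in a small fraction of cells, where it has been tied to telomere lengthening by recombination and to loss of DNA methylation.

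RefSeq (GRCm38.p6) places the 6 members and 3 further pseudogenes, Zscan4-ps1 to Zscan4-ps3, on chromosome 7 in the order Zscan4a, Zscan4b, Zscan4c, Zscan4-ps1, Zscan4d, Zscan4e, Zscan4f, Zscan4-ps2 and Zscan4-ps3. Zscan4b, Zscan4c, Zscan4d and Zscan4f are annotated there as protein coding, Zscan4a as a transcribed pseudogene and Zscan4e as a pseudogene. The 3 pseudogenes with the suffix ps had no row of their own. Promoter sequence was held for Zscan4b, Zscan4c, Zscan4d and Zscan4f, and a stretch of 225 bases of each is shown because these members followed 1 course over the stages. The windows are aligned on the TATAA motif that all 4 carry, with 150 bases before it. They lie at chr7:10905007-10905231 on the minus strand, chr7:11005541-11005765 on the plus strand, chr7:11166139-11166363 on the minus strand and chr7:11397734-11397958 on the plus strand. Capitals mark matches to TATAA and to CCAAT, each 5′ to 3′ on the gene's strand.
Zscan4b: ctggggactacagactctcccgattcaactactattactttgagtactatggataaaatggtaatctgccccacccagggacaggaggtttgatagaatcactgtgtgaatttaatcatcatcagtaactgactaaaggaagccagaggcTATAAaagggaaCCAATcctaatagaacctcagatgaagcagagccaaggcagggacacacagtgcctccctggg
Zscan4c: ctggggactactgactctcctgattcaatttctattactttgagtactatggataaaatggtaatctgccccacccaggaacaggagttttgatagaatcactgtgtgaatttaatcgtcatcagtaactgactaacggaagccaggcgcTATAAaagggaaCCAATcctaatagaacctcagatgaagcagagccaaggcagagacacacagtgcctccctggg
Zscan4d: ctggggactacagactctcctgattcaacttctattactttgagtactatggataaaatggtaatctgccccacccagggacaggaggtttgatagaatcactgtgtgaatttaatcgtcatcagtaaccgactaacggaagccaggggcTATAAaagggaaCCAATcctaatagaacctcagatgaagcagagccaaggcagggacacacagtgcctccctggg
Zscan4f: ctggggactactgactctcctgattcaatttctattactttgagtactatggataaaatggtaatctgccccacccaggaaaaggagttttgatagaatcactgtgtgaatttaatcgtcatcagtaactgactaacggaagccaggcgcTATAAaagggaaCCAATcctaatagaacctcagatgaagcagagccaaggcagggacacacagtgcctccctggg

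All 4 windows held the same base at 212 of 225 positions (94.2%). Zscan4c and Zscan4f were the closest pair, with 2 differing positions (99.1% identical). Zscan4b differed from both of them at 11 positions (95.1% identical). In all, 4 motifs were searched on both strands of the 300-base RefSeq promoters, of which 32851 were held. TATAA, the core of the TATA box, was in 4 of 4 Zscan4 promoters and in 24.9% of all promoters. CCAAT was in 4 of 4 and in 37.4%, and both motifs together were in 4 of 4 and in 9.88%. GATTNAATC, taken as the core of the DUX motif, and GGATTA, a paired-type homeodomain motif, were in none of the 4, against 0.268% and 7.06% of all promoters. The motif matches are descriptions of the letters in these windows.

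The labels were first set against marker genes. The 9 MII oocyte markers (among them Zp3, Gdf9 and Mos) had median log2 signals of 16.08 and 16.06 on the superovulated and natural-cycle MII arrays, against 6.83 and 6.33 in blastocysts, and all 9 were above the level of silent genes on both arrays at each stage up to the late 2-cell stage. The 7 blastocyst markers measured (among them Cdx2, Krt8 and Nanog) had medians of 12.00 and 12.99 on the superovulated and natural-cycle blastocyst arrays and of at most 8.13 at the other stages, although all 7 were above that level also on the superovulated early 2-cell and the natural-cycle morula array. These markers tell the ends of the series apart and do not identify the stages between them. The level of silent genes is the 95th percentile, on each array, of 1385 olfactory and vomeronasal receptor rows, and it ran from 4.72 to 5.29 on the log2 scale. Column medians ran from 4.39 on the natural-cycle 1-cell array to 4.69 on the superovulated morula array. Since the medians are this close, signals compare a row with the rest of its own array and give no amount for each embryo. In pools of embryos, fewer cells with the transcript and less transcript for each cell cannot be told apart.

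Transcripts of the Zscan4 family were present in the oocyte, peaked steeply at the early 2-cell stage, and declined to the level of silent genes at the blastocyst stage. Zscan4c, whose promoter is widely used to mark the Zscan4-positive state of embryonic stem cells, gave the following log2 signals. In superovulated material they were 9.26 in MII oocytes, 9.27 at the 1-cell, 14.39 at the early 2-cell, 10.91 at the late 2-cell, 9.64 at the 4-cell and 7.08 at the 8-cell stage, 8.41 in morulae and 4.76 in blastocysts. In natural-cycle material they were 9.38 in MII oocytes, 8.79 at the 1-cell, 13.79 at the early 2-cell, 9.89 at the late 2-cell, 7.96 at the 4-cell and 6.39 at the 8-cell stage, 6.14 in morulae and 4.54 in blastocysts. On both backgrounds the early 2-cell value stood far above the other 7, and it did not overlap with them.

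Zscan4d, described as the main family transcript of 2-cell embryos, had superovulated signals of 8.33 in MII oocytes, 8.67 at the 1-cell, 13.56 at the early 2-cell, 10.09 at the late 2-cell, 8.79 at the 4-cell and 6.65 at the 8-cell stage, 7.36 in morulae and 4.57 in blastocysts. Its natural-cycle signals were 8.43 in MII oocytes, 8.48 at the 1-cell, 13.32 at the early 2-cell, 9.08 at the late 2-cell, 6.91 at the 4-cell and 6.02 at the 8-cell stage, 5.32 in morulae and 3.97 in blastocysts. The order of stages was like that of Zscan4c, and both blastocyst values lay below the level of silent genes.

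Zscan4f encodes a full-length protein and shares its promoter sequence most closely with Zscan4c. With superovulation its signals were 9.12 in MII oocytes, 9.57 at the 1-cell, 14.74 at the early 2-cell, 11.14 at the late 2-cell, 9.86 at the 4-cell and 7.34 at the 8-cell stage, 8.36 in morulae and 4.85 in blastocysts. Without it they were 9.29 in MII oocytes, 8.92 at the 1-cell, 14.22 at the early 2-cell, 10.20 at the late 2-cell, 8.57 at the 4-cell and 6.49 at the 8-cell stage, 5.93 in morulae and 4.26 in blastocysts. The early 2-cell values were the highest of the row on both backgrounds, and the morula values were far apart between backgrounds.

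The Zscan4f shared row cannot be assigned to 1 gene, since its probes are annotated to 3 symbols. It gave 7.17 in MII oocytes, 7.80 at the 1-cell, 13.35 at the early 2-cell, 9.82 at the late 2-cell, 8.36 at the 4-cell and 6.01 at the 8-cell stage, 6.83 in morulae and 4.48 in blastocysts after superovulation. After natural cycles it gave 7.51 in MII oocytes, 7.55 at the 1-cell, 12.99 at the early 2-cell, 8.79 at the late 2-cell, 7.09 at the 4-cell and 5.50 at the 8-cell stage, 5.07 in morulae and 4.32 in blastocysts. Its course was that of the single-gene rows.

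Zscan4b, which encodes a shorter protein, had 8.05 in MII oocytes, 8.46 at the 1-cell, 14.07 at the early 2-cell, 10.42 at the late 2-cell, 9.01 at the 4-cell and 6.75 at the 8-cell stage, 6.73 in morulae and 3.99 in blastocysts in superovulated material. The natural-cycle values of Zscan4b were 8.16 in MII oocytes, 8.05 at the 1-cell, 13.47 at the early 2-cell, 9.74 at the late 2-cell, 7.84 at the 4-cell and 6.33 at the 8-cell stage, 5.92 in morulae and 4.25 in blastocysts. Its backgrounds lay closer together at the morula stage than those of Zscan4c and Zscan4f.

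The rows of the annotated pseudogenes Zscan4a and Zscan4e showed the same peak. Zscan4a signals were 9.23 in MII oocytes, 9.69 at the 1-cell, 14.55 at the early 2-cell, 11.33 at the late 2-cell, 9.91 at the 4-cell and 7.53 at the 8-cell stage, 8.37 in morulae and 5.29 in blastocysts in the superovulated samples. In natural-cycle samples Zscan4a had 9.29 in MII oocytes, 8.87 at the 1-cell, 14.30 at the early 2-cell, 10.54 at the late 2-cell, 8.80 at the 4-cell and 7.21 at the 8-cell stage, 6.35 in morulae and 5.68 in blastocysts. Zscan4a was the only row still above the level of silent genes in blastocysts, on both arrays. Zscan4e signals were 8.83 in MII oocytes, 8.67 at the 1-cell, 14.12 at the early 2-cell, 10.63 at the late 2-cell, 9.04 at the 4-cell and 7.08 at the 8-cell stage, 7.39 in morulae and 4.20 in blastocysts with superovulation. The natural-cycle row of Zscan4e read 8.39 in MII oocytes, 8.39 at the 1-cell, 13.46 at the early 2-cell, 9.54 at the late 2-cell, 7.96 at the 4-cell and 6.30 at the 8-cell stage, 6.71 in morulae and 4.04 in blastocysts. Both blastocyst values of Zscan4e were below the level of silent genes.

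**Figure D1:**
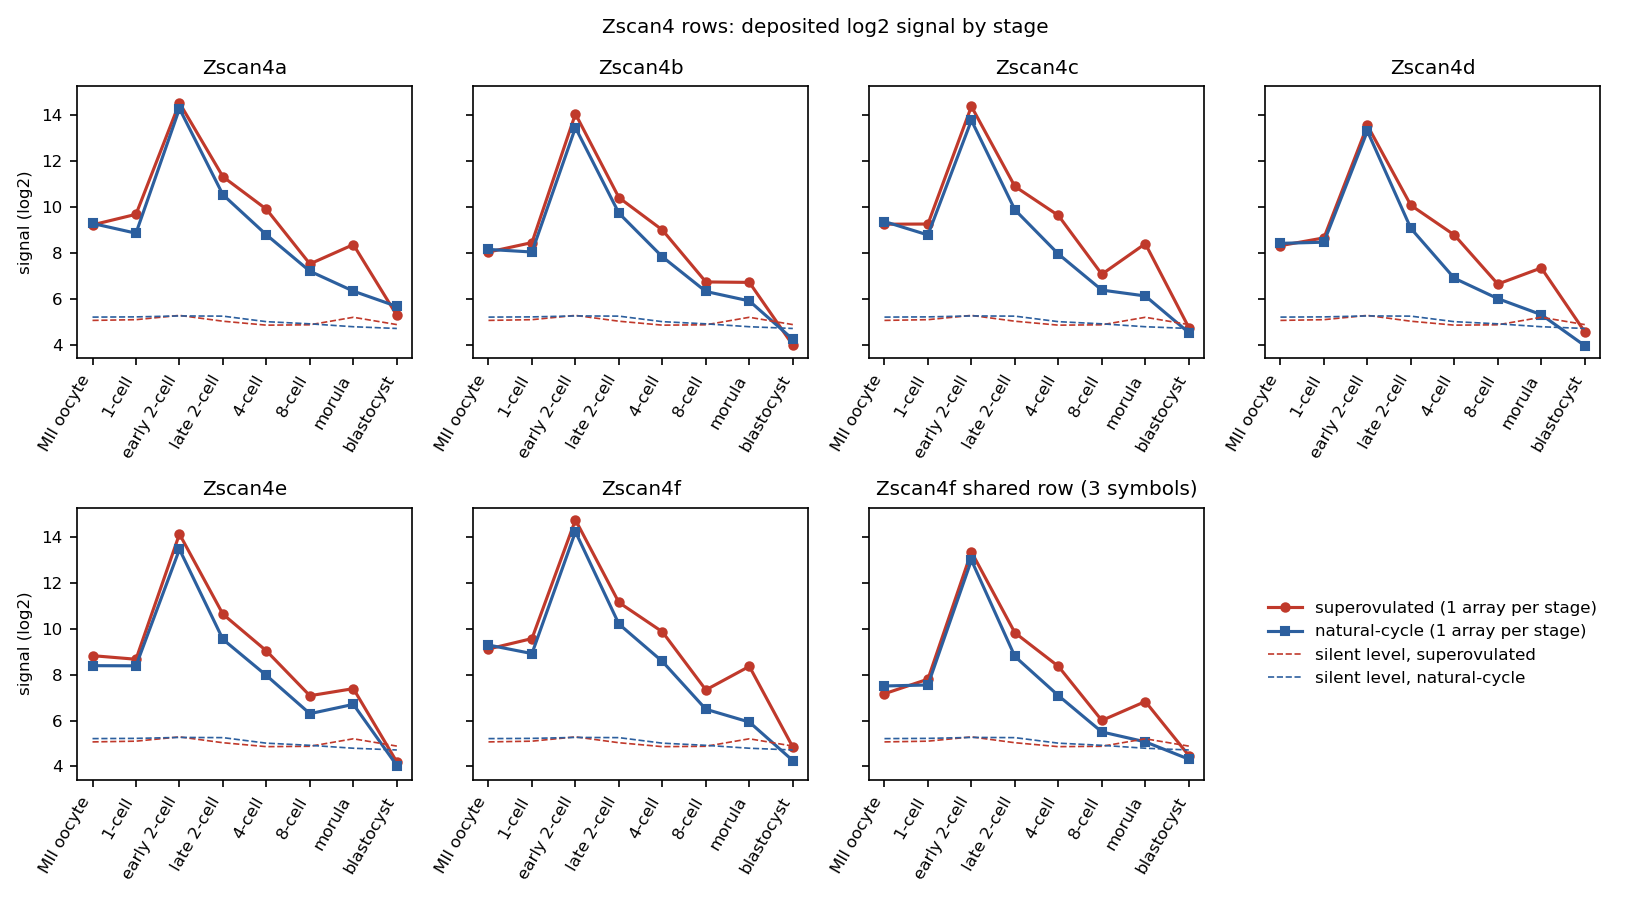
Deposited log2 signal (vertical axis) of each of the 7 Zscan4 rows at the 8 stages (horizontal axis), with superovulated arrays in red and natural-cycle arrays in blue, 1 array for each point, and the level of silent genes of each array as a dashed line. All 14 values at the early 2-cell stage lie between 12.99 and 14.74, and 2 of the 14 blastocyst values, both of Zscan4a, lie above the dashed lines.

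At each stage from MII oocyte to morula, 14 of 14 values were above the level of silent genes, and at the blastocyst stage 2 of 14 were. Of all 32814 rows, 20331 were above that level on at least 2 of the 16 arrays. Their share at each stage is not given here. Within every row the early 2-cell arrays ranked first and the late 2-cell arrays second, with no overlap between neighbouring ranks in any of the 7 rows. The next 3 ranks were held by the 4-cell, 1-cell and MII stages, in an order that differed between rows. In 6 of 7 rows the arrays of ranks 3 and 4 overlapped, and likewise in 6 of 7 rows those of ranks 4 and 5. The arrays of ranks 5 and 6 overlapped in 2 of 7 rows, Zscan4c and Zscan4d (4-cell with morula). Morula and 8-cell arrays followed and overlapped in 7 of 7 rows, and blastocyst arrays were last with no overlap in any row. The share of all rows with such gaps is not given here, so these counts only describe the 7 rows. Over the 16 arrays the 21 pairs of rows correlated with Pearson r between 0.982 and 0.997 (median 0.990). That is a description across arrays which share the stages, and the members' sequences are alike, so whether the probe sets measured the members separately was not tested.

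The first step, from MII oocyte to 1-cell, asked whether the family changed at fertilization. It was not called in any of the 7 rows by limma with Benjamini-Hochberg adjustment over 32814 rows (0 of 7 at an unadjusted p below 0.05), against 0.226% of all rows called in either direction. Fitted differences ran from -0.29 for Zscan4c to 0.34 for the Zscan4f shared row, with standard errors of 0.27 to 0.48. The 95% interval was narrowest for Zscan4e (-0.68 to 0.52) and widest for Zscan4c (-1.34 to 0.76). A change inside a row's own interval was thus not excluded with this number of arrays.

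The step from 1-cell to early 2-cell spans the onset of embryonic transcription. All 7 rows rose (limma, adjusted p between 1.75e-07 and 2.22e-05), against 11.8% of all rows called higher. Zscan4b rose most, by 5.51 ± 0.32 on the log2 scale (SE, 45.6-fold, adjusted p = 4.54e-07), and Zscan4d least, by 4.87 ± 0.48 (29.2-fold, adjusted p = 2.22e-05). The remaining rows lay between these, Zscan4e with the smallest standard error (5.26 ± 0.27, 38.4-fold, adjusted p = 1.75e-07). The rise had about the same size on both backgrounds, 4.85 to 5.61 with superovulation and 4.84 to 5.44 in natural cycles. The median over the 7 rows was 5.24, and over all rows 0.003.

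From the early to the late 2-cell stage all 7 rows fell (adjusted p between 4.03e-05 and 0.000518), against 8.48% of all rows called lower. Zscan4a fell least, with a log2 difference of -3.49 ± 0.47 (11.2-fold, adjusted p = 0.000518), and the Zscan4f shared row most, with -3.86 ± 0.42 (14.5-fold, adjusted p = 0.000178). The fall was -3.22 to -3.65 on superovulated arrays and -3.73 to -4.24 on natural-cycle arrays. The calls of the rise and of this fall held in every alternative setting in which a row was fitted.

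The decline went on at the cleavage stages with less certainty. From late 2-cell to 4-cell, Zscan4b (-1.66 ± 0.32, adjusted p = 0.0290) and Zscan4e (-1.59 ± 0.27, adjusted p = 0.0191) fell, against 1.11% of all rows called lower, and the other 5 rows had differences of -1.45 to -1.73 that did not pass (limma, adjusted p between 0.0788 and 0.135). Leaving out 1 of the 4 arrays of this step left 0 calls without the superovulated late 2-cell, the superovulated 4-cell or the natural-cycle 4-cell array, and 1 call when the natural-cycle late 2-cell array was dropped. From 4-cell to 8-cell 6 of 7 rows fell, against 4.18% of all rows called lower. The largest fall was that of Zscan4f (-2.31 ± 0.46, 4.94-fold, adjusted p = 0.0148), and Zscan4d did not pass (-1.51 ± 0.48, limma adjusted p = 0.0859). Without the superovulated 4-cell array 1 row was called, without the superovulated 8-cell or the natural-cycle 4-cell array 2 rows, and without the natural-cycle 8-cell array 0 rows.

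From 8-cell to morula no row was called (0 of 7, 0 at an unadjusted p below 0.05), against 1.79% of all rows called in either direction. The fitted differences, which average the backgrounds, lay between -0.22 for Zscan4b and 0.54 for Zscan4c. Behind these averages the backgrounds differed, with a change of -0.02 to 1.33 from 8-cell to morula on superovulated arrays and of -0.87 to 0.41 on natural-cycle arrays.

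The last step brought the family down to the level of silent genes. From morula to blastocyst all 7 rows fell (limma, adjusted p between 8.14e-05 and 0.0326), against 5.58% of all rows called lower. Zscan4e had the lowest adjusted p and fell by at least 4.74-fold, a bound because both blastocyst values were at or below the level of silent genes and were set to that level. Over the 6 rows with such a bound it ran from at least 2.22-fold for the Zscan4f shared row to at least 5.54-fold for Zscan4c. Zscan4a, measured above the level on all 4 arrays, fell by 1.87 ± 0.47 on the log2 scale (3.67-fold, limma adjusted p = 0.0221). That average joins -3.08 on superovulated and -0.67 on natural-cycle arrays. On deposited values the changes of the 7 rows were -2.35 to -3.65 with superovulation and -0.67 to -2.66 in natural cycles. In 6 of these rows both blastocyst values were at or below the level of silent genes. Without the superovulated morula array 3 of 7 rows were called and without the superovulated blastocyst array 4 of 7. Blastocyst set against 1-cell gave 7 of 7 rows lower, against 20.1% of all rows called lower, with bounds from at least 7.33-fold to at least 21.7-fold for 6 rows and 13.9-fold for Zscan4a (-3.79 ± 0.47, adjusted p = 3.13e-05).

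**Figure D2:**
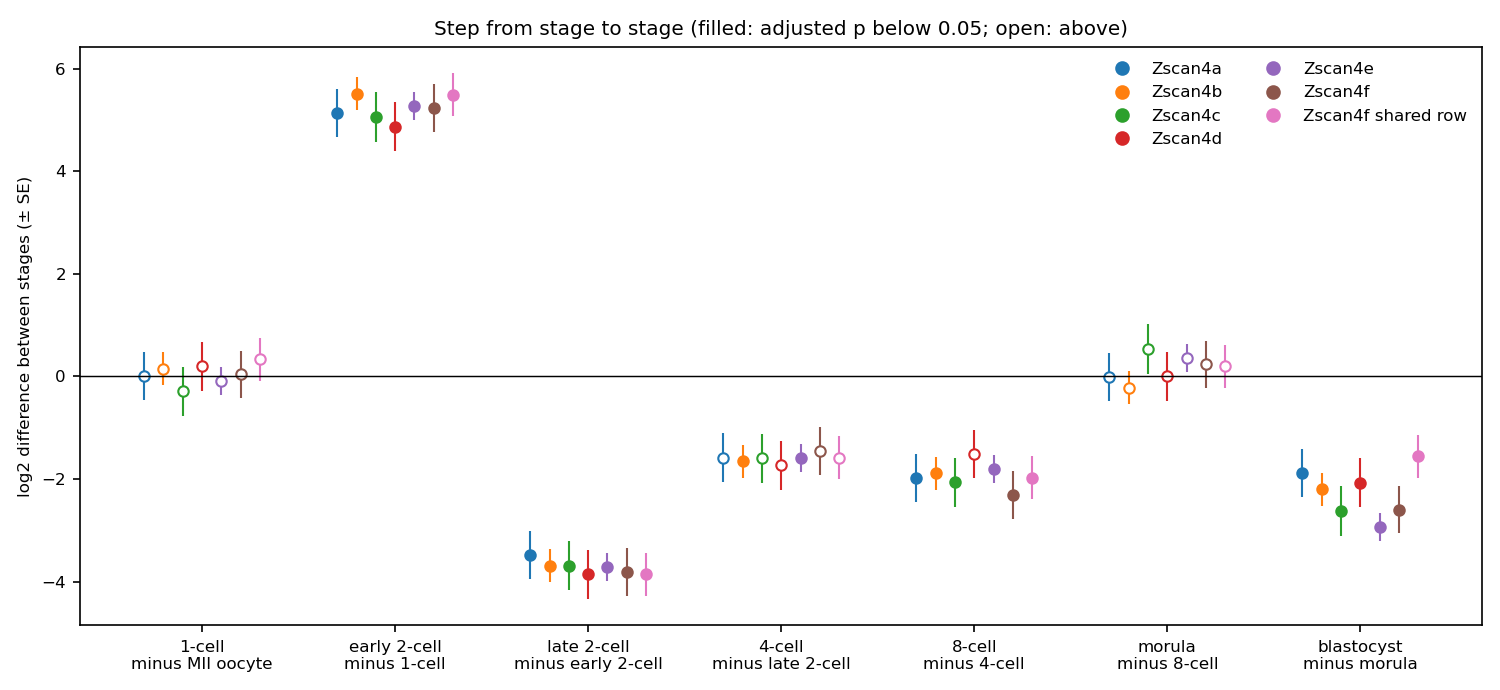
Fitted log2 difference between neighbouring stages (vertical axis, later minus earlier, bars ± SE, 16 arrays in the fit) for each of the 7 Zscan4 rows in the 7 steps (horizontal axis). Filled points have an adjusted p below 0.05 in limma, and the last step ends at or below the level of silent genes in 6 of 7 rows. All 7 rows rise by 4.87 to 5.51 into the early 2-cell stage and fall by 3.49 to 3.86 after it.

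The second question of the design was whether superovulation shifted these levels. Over all stages the 7 rows were higher with superovulation by 0.46 (Zscan4b) to 0.89 (Zscan4f) on the log2 scale, that is 1.38-fold to 1.85-fold, and none was called (0 of 7, limma adjusted p between 0.0674 and 0.229), against 0.369% of all rows called in either direction. All 7 had an unadjusted p below 0.05 in limma, as had 5290 of all 32814 rows. The nearest to the threshold was Zscan4e (0.65 ± 0.14, adjusted p = 0.0674), which was higher with superovulation at 8 of 8 stages. The other rows were higher at 6 or 7 of 8 stages. Zscan4e passed when either blastocyst array was left out (1 of 7 rows called). A fit that allowed the difference to change at the early and late 2-cell stages called 0 of 7 rows (0 at an unadjusted p below 0.05, estimates of -0.25 to 0.31) and 0% of all rows. Its 95% intervals ran from the narrowest, -0.39 to 1.01 for Zscan4e, to the widest, -1.33 to 1.22 for Zscan4c, so that a change of 2-fold there was not excluded for any row. The differences between rows were not tested.

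Stage by stage, each difference rests on 1 array against 1 and has no test. In MII oocytes 1 of 7 rows was higher with superovulation, Zscan4e, beside 16065 of all 32814 rows, and the median difference was -0.11. No row there was at 2-fold or more, against 1.74% of all rows. At the 1-cell and early 2-cell stages 7 of 7 rows were higher, by a median of 0.41 and 0.52. Of all 32814 rows, 16426 and 17302 were higher. No Zscan4 row was at 2-fold or more at either stage, against 3.09% and 1.51% of all rows. At the late 2-cell stage 7 of 7 were again higher, by a median of 1.01, beside 18149 of all 32814 rows. There 4 of 7 rows reached 2-fold, as did 2.26% of all rows. The 4-cell stage had 7 of 7 rows at 2-fold or more (median 1.28, from 1.07 for Zscan4e to 1.88 for Zscan4d), against 3.12% of all rows. At the 8-cell stage the median was 0.63 with no row at 2-fold, against 3.11% of all rows. The median difference was thus larger at each later stage from the 1-cell to the 4-cell stage and smaller again at the 8-cell stage.

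The morula arrays were furthest apart. The median difference was 2.03, and 5 of 7 rows were at 2-fold or more, as were 2% of all rows. Zscan4f had 8.36 on the superovulated and 5.93 on the natural-cycle array, a difference of 2.43, and Zscan4c had 8.41 and 6.14, a difference of 2.28. Zscan4b (6.73 and 5.92) and Zscan4e (7.39 and 6.71) stayed below 2-fold. Among all rows, 0.229% had a difference above the Zscan4 median. In blastocysts nearly all values were at the level of silent genes, and the median was 0.16. Higher with superovulation were 5 of 7 rows, beside 19907 of all 32814. No Zscan4 row was at 2-fold, against 2.01% of all rows.

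**Figure D3:**
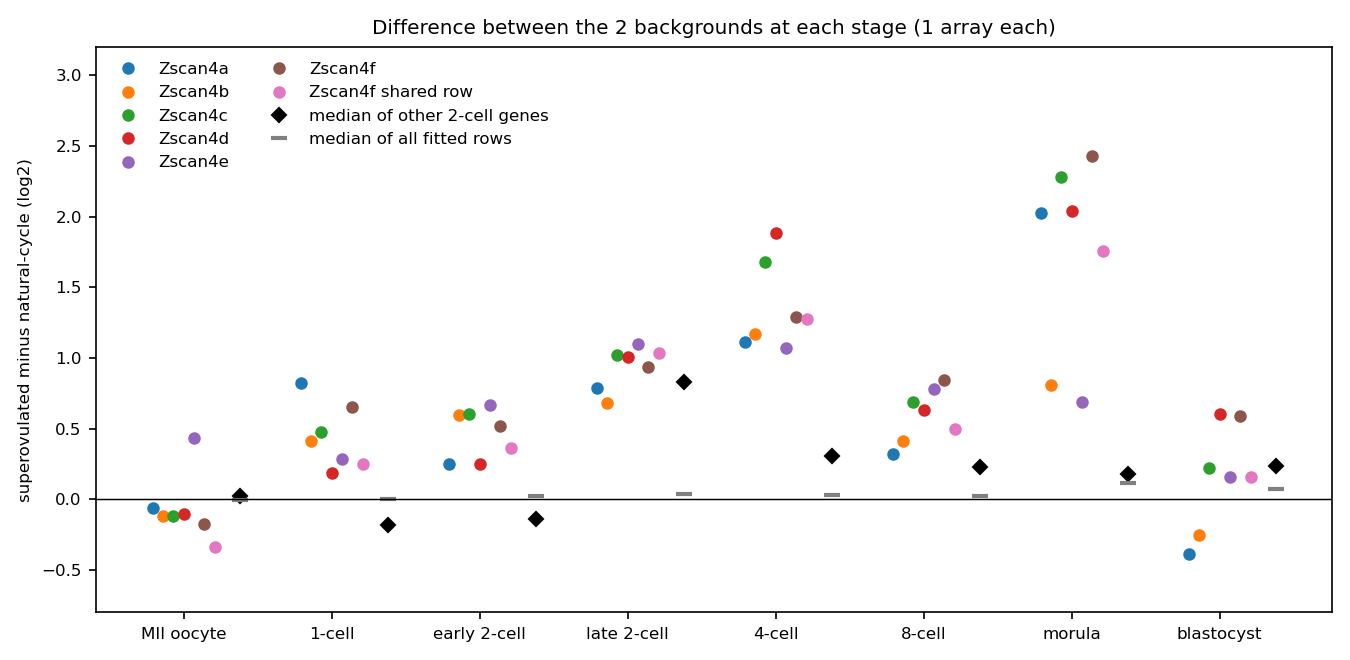
Superovulated minus natural-cycle log2 signal (vertical axis) at each stage (horizontal axis) for the 7 Zscan4 rows, 1 array against 1, with the median over 18 other genes of the 2-cell burst (black diamonds) and over all fitted rows (grey bars). The Zscan4 median is 2.03 in morulae, where the median of the other 2-cell genes is 0.18 and that of all rows 0.11.

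Other measures moved between the morula arrays as well. The median of all rows was 0.11 higher with superovulation there, and the superovulated morula array had the highest column median of the series. Of the 7 blastocyst markers 0 were higher in superovulated morulae, with a median difference of -1.31. In blastocysts 1 of 7 was higher, with a median of -1.26, beside 19907 of all 32814 rows higher. The 14 cumulus and granulosa markers, which would show cells of the ovarian follicle, were all higher in superovulated morulae (14 of 14, median difference 0.36). They ranged from 3.35 to 10.52 with superovulation and from 3.07 to 9.54 in natural cycles, and Amhr2 was the highest on both arrays. Of the markers, 4 of 14 were above the level of silent genes with superovulation, against 2 of 14 in natural cycles. That level was itself higher on the superovulated morula array (5.207, against 4.795), and 19823 of all 32814 rows were higher there. Amhr2, 1 of these markers, also rose into the early 2-cell (3.15 ± 0.34) and the late 2-cell stage (2.61 ± 0.34). MII oocyte markers differed by a median of 0.10 (6 of 9 higher). In MII oocytes 11 of the 14 cumulus and granulosa markers were higher with superovulation, beside 16065 of all 32814 rows. These markers reached 11.94 there with superovulation, against at most 8.12 in natural cycles. From MII oocyte to 1-cell 3 of these 14 were called lower. The part of these in the Zscan4 difference was not tested. Under cyclic loess and under centring on the brighter rows the Zscan4 median in morulae was 2.41 and 2.36, both chosen after the data were seen, and 7 of 7 rows remained higher. Over the 8 stages the 21 pairs of rows had correlations of their differences between 0.388 and 0.983 (median 0.815), with points that share each array.

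The course over 16 arrays was then set against those of 30640 other rows with 1 symbol, by Pearson correlation with the mean of the 6 single-gene Zscan4 rows. The 10 most alike were Gm11487, Gm11756, Gm3987, Gm3959, Gm3980, Gm20710, Gm20665, Gm11757, Gm4897 and Gm10678, all predicted genes, with r between 0.959 and 0.966. In all, 25 rows had r of at least 0.95 and 117 of at least 0.9. The choice depended on the measure, since 7 of these 10 were again among the first 10 after cyclic loess and 1 of 10 by rank correlation. Among them Gm3959 had 9.28 in superovulated and 5.10 in natural-cycle morulae, Gm20665 had 9.49 and 5.49, and Gm20710 had 9.00 and 5.13. Gm11487 had 5.39 in superovulated and 5.00 in natural-cycle morulae. That the 10 rows shared the early 2-cell peak follows from their choice by correlation with a course that has it. They differed in how far the morula arrays lay apart.

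**Figure D4:**
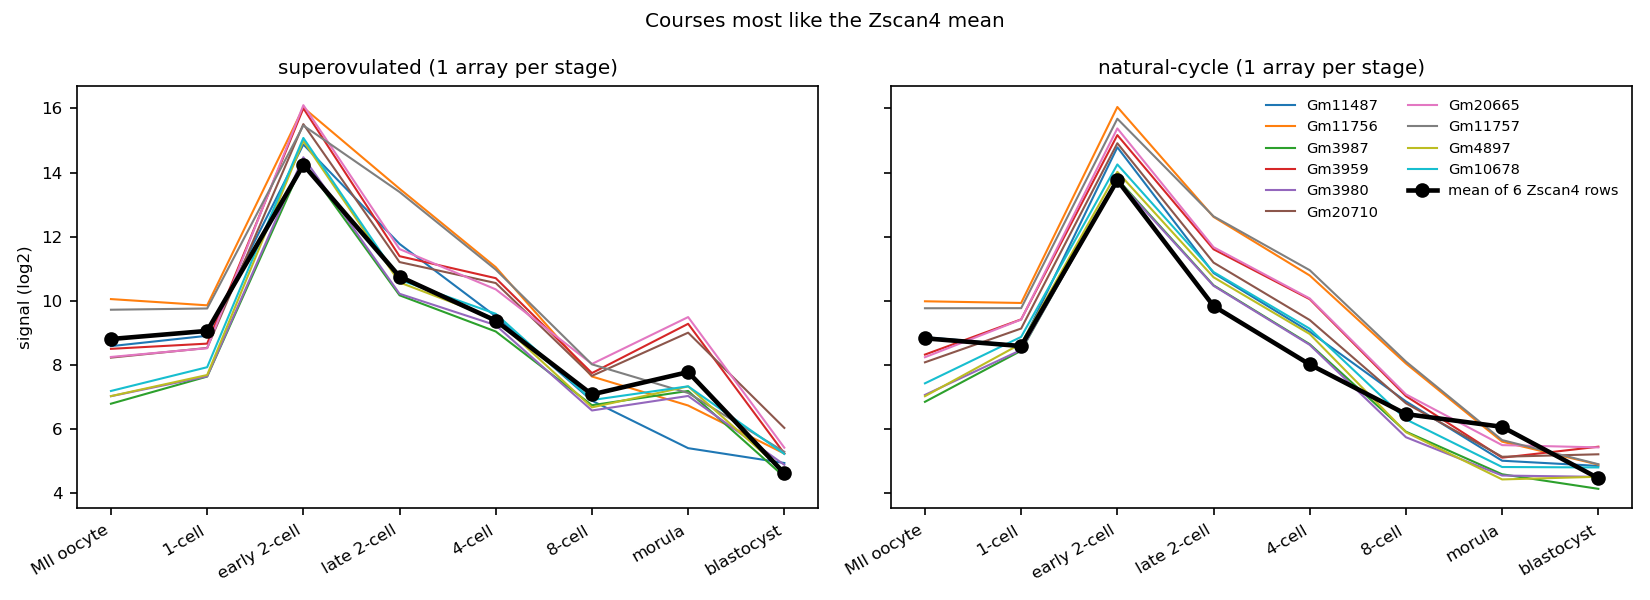
Log2 signal (vertical axis) over the 8 stages (horizontal axis) on superovulated arrays (left) and natural-cycle arrays (right), 1 array for each stage, for the mean of the 6 single-gene Zscan4 rows (black) and the 10 rows whose course correlated most with it (r from 0.959 to 0.966). All 11 lines peak at the early 2-cell stage, which follows from the choice of the 10 rows by correlation. In superovulated morulae some lines rise again, those of Gm3959, Gm20665 and Gm20710 to between 9.00 and 9.49.

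Little could be read of the genes around the family. Of 32 other genes that RefSeq lists between Zscan4a and Zscan4-ps3, 1 had a row of its own, the microRNA gene Mir297-1. Its signal never exceeded 4.48 and was below the level of silent genes on all 16 arrays, and neither 2-cell step was called (limma adjusted p = 0.616 and 0.918).

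Among the genes known from embryonic stem cells to act upstream of Zscan4, 5 of 6 listed were measured. Tbx3, a T-box factor that raises Zscan4 in stem cells, rose into the early 2-cell stage (2.66 ± 0.23, limma adjusted p = 9.49e-06). Dppa4, which with Dppa2 activates Dux in stem cells, rose as well, by 3.03 ± 0.42 (adjusted p = 0.000299), with 9.29 on the superovulated and 10.67 on the natural-cycle early 2-cell array, against 6.80 and 7.10 at the 1-cell stage. Duxf3 is the symbol that carries the Dux transcription factor, the pioneer activator of the 2-cell programme. It was called higher (adjusted p = 0.00951), but its signals of 5.23 with superovulation and 4.73 in natural cycles at the early 2-cell stage did not exceed the level of silent genes, and they were below it on all 16 arrays, so no size is given. Dppa2 was high throughout, from 14.64 to 17.14 with superovulation and from 14.62 to 16.65 in natural cycles, and did not pass in that step.

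After the peak, Dppa4 rose further into the late 2-cell stage (2.40 ± 0.42, limma adjusted p = 0.00229), where Zscan4 fell. Dppa2, which had not passed in the step before (-0.39 ± 0.24), rose there by 1.19 ± 0.24 (limma adjusted p = 0.00512). After cyclic loess that rise of Dppa2 was 0.27. Duxf3 (adjusted p = 0.00257, again below the level of silent genes throughout) and Nelfa, a subunit of the negative elongation factor that induces the 2-cell state in stem cells (-1.20 ± 0.30, adjusted p = 0.0145), were called lower. Calls here and for the lists that follow are those of the same limma fit, and where a gene was at or below the level of silent genes on both arrays of 1 stage its fold is a bound with those values set to that level. Over all rows, 11.8% were called higher and 9.83% lower in the step from 1-cell to early 2-cell, and 10.4% and 8.48% in the next. The activator list counted 3 genes up and 0 down at the early 2-cell step and 2 up and 2 down at the next, with medians of 0.66 (0.19 with Duxf3 at its floor) and 0.01.

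Of 15 measured genes whose loss raises Zscan4 in stem cells, 2 rose and 4 fell into the early 2-cell stage (median -0.03). Hdac1, a histone deacetylase, rose by 4.82 ± 0.32, and Chaf1b, a subunit of the chromatin assembly factor CAF-1, by 1.02 ± 0.29. Chaf1a, the large subunit of CAF-1 (-2.13 ± 0.39), Pias4, a SUMO ligase (-1.77 ± 0.34), and Pcgf6, a subunit of a variant Polycomb complex (-1.36 ± 0.27), fell. From the early to the late 2-cell stage 3 rose, the histone methyltransferase gene Ehmt1 (1.15 ± 0.31), Hdac1 (1.13 ± 0.32) and Pcgf6 (0.91 ± 0.27), and 2 fell, the heterochromatin protein gene Cbx3 (-1.22 ± 0.34) and the histone methyltransferase gene Setdb1 (-1.14 ± 0.29).

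Genes of telomere maintenance and recombination, the processes Zscan4 has been tied to, were set beside the family. In the step to the Zscan4 peak 14 of 21 were not called, and over all rows 7110 of 32814 were called. Of 21 measured, 1 rose and 6 fell into the early 2-cell stage (median 0.07), beside 11.8% and 9.83% of all rows. Terc, the RNA template of telomerase, rose by at least 2.25-fold, with both 1-cell values below the level of silent genes. Tert, its catalytic subunit (-2.16 ± 0.30), and the telomere-binding proteins Terf2 (-1.93 ± 0.30) and Terf1 (-1.77 ± 0.40) fell, and the natural-cycle early 2-cell value of Tert was below that level. Into the late 2-cell stage 4 rose, among them Terf1 (1.81 ± 0.40), the telomerase component Dkc1 (1.13 ± 0.35) and the DNA repair gene Nbn (1.09 ± 0.29), and 2 fell, the shelterin genes Acd (-1.43 ± 0.30) and Pot1a (-1.28 ± 0.28), beside 10.4% of all rows higher and 8.48% lower.

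Of 9 DNA methylation genes, 2 rose and 3 fell into the early 2-cell stage (median -0.23). The maintenance methyltransferase gene Dnmt1 (-3.27 ± 0.31) and its partner Uhrf1 (-1.91 ± 0.48) fell, while Tet1, which oxidizes methylcytosine, rose by 1.73 ± 0.25. The others called were Uhrf2, higher by at least 1.46-fold from 1-cell values below the level of silent genes, and the de novo enzyme Dnmt3a (-0.69 ± 0.22). In the next step Tet1 rose by 2.49 ± 0.25, and Uhrf1 (-2.79 ± 0.48), Tet3 (-2.21 ± 0.38) and Dnmt3l (-0.98 ± 0.24) fell.

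The 35 other SCAN-domain genes measured, relatives of Zscan4 outside the cluster, had 4 members higher and 6 lower at the early 2-cell step (median -0.15, or 0 with dim values at the level of silent genes), beside 11.8% higher and 9.83% lower over all rows. Of the 4 called higher, 2 were at or below the level of silent genes on all 4 arrays of the step, among them Zfp446, for which no size is given. Zscan5b rose by 4.45 ± 0.41 and went on rising into the late 2-cell stage (2.02 ± 0.41), where Zscan4 fell. Zscan25 rose as well (1.07 ± 0.35), whereas Zfp449 (-3.73 ± 0.35) and Zkscan14 (-2.96 ± 0.30) fell, and Zkscan6 fell by at least 3.70-fold to early 2-cell values below that level. In the later step 6 rose, with Zscan25 (1.73 ± 0.35) and Zfp263 (1.18 ± 0.21) next to Zscan5b, and 4 fell, beside 10.4% of all rows higher and 8.48% lower. Named among those that fell are Zkscan16 (-1.28 ± 0.36), Zkscan8, lower by at least 1.62-fold with both late 2-cell values below the level of silent genes, and the imprinted gene Peg3 (-1.08 ± 0.30), whose natural-cycle late 2-cell value was below it. The family's median of 5.24 in the first step stood beside one of -0.15 for these relatives.

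The other genes listed for the 2-cell burst moved with Zscan4 in most cases. Of 18 measured, 17 rose into the early 2-cell stage (median 7.14, or 6.85 with dim 1-cell values at the level of silent genes) and the mitochondrial arginase gene Arg2 fell (-3.94 ± 0.30), beside 11.8% of all rows higher and 9.83% lower. The speckle-type POZ genes Tdpoz2 and Tdpoz3 rose by at least 956-fold and at least 1146-fold and Gm5662 by at least 293-fold, all bounds because both 1-cell values were below the level of silent genes, so that the 3 rises have no order. From early to late 2-cell 13 fell, most of all the zinc finger gene Zfp352 (-3.84 ± 0.34), the deubiquitinase gene Usp17ld (-3.64 ± 0.36) and Tdpoz3 (-3.63 ± 0.33), and Pramel7 (2.02 ± 0.34) and Pramel6 (1.84 ± 0.31) rose. The fall of Zfp352 was of the size of the Zscan4 fall. Its signal in oocytes was below the level of silent genes (4.82 with superovulation and 4.74 in natural cycles), whereas 7 of 7 Zscan4 rows were above it. Of the 18 genes of this list, 9 were above that level in oocytes with superovulation and 8 in natural cycles. At the late 2-cell stage 14 of 18 of these genes were higher with superovulation (median difference 0.83). The Zscan4 median there was 1.01, and 18149 of all 32814 rows were higher. In morulae the medians were 0.18 for these genes (12 of 18 higher) and 2.03 for Zscan4, and 19823 of all rows were higher. The difference between the lists was not tested.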

How the data were processed

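The 16 arrays were processed by the authors in Affymetrix Expression Console, per the labels, and deposited as log2 signals in 1 table of 72688 rows. The study's methods name SST-RMA and analysis of variance for other arrays of the study, and for these arrays the summarisation and the genome build are not given in the sources used here. Array number limits the precision.

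Gene symbols came from the platform's annotation, with 30646 rows naming 1 gene, 2168 several and 33142 none, and 6732 control rows left aside. Symbols were set against RefSeq (GRCm38.p6), which changed 0 of them. Values were used as deposited. A linear model with stage and background as additive terms was fitted to 32814 rows with limma 3.58.1 (R 4.3.3, eBayes with trend, 7 residual and 4.4 prior degrees of freedom), and p was adjusted by Benjamini-Hochberg over all of them and called below 0.05. A second fit let the background difference change at the 2-cell stages (6 residual degrees of freedom). Each stage and background has 1 array, so the spread behind the p-values is not that of replicate arrays. It is the departure of the background difference at each stage from the shift in the model. Differences between backgrounds that belong to 1 stage are part of it. The fit was tested on simulated data. Bounds on a fold set values at or below the level of silent genes to that level.

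Members and gene lists were chosen with earlier results of these data known, so their counts are descriptions. All rows that name a member are described. Of the other lists, the genes named are the 3 with the largest called change in each direction in the 2-cell steps, besides Duxf3, Dppa2 and Dppa4, and of the courses the 10 most alike. A gene with several rows was represented by the brightest. Promoters came from RefSeq. Alternatives covered scaling, the rows fitted, a filter on dim rows, plain analysis of variance and leaving out each array.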

Additional observations from a re-analysis of the deposited data

Results flagged for a closer look

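Between MII oocyte and 1-cell, and between 8-cell and morula, some Zscan4 rows moved in opposite directions on the backgrounds, by more than the median standard error of a step (0.23) on each. That is the median over all rows, and the standard errors of the rows named here are larger (0.42 to 0.48). These belong to the fitted step, which averages the backgrounds, and a change between single arrays has a larger error, not given here. Both rows named from MII to 1-cell and the natural-cycle change of Zscan4c from 8-cell to morula lie within even the fitted standard errors. Whether the other changes exceed the spread of single arrays was not tested. The difference between the backgrounds was not tested, since each rests on single arrays. From MII to 1-cell, Zscan4a changed by 0.46 with superovulation and -0.43 in natural cycles, and Zscan4f by 0.45 and -0.37. From 8-cell to morula, Zscan4a changed by 0.84 with superovulation and -0.87 in natural cycles, Zscan4c by 1.33 and -0.26, Zscan4d by 0.70 and -0.70, Zscan4f by 1.03 and -0.56, and the Zscan4f shared row by 0.82 and -0.43. All are log2 changes, later minus earlier stage.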

How the results depend on the processing

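No called Zscan4 value changed direction in any alternative. Of 787 refitted values of called rows, 737 stayed past the threshold and 50 did not, all of them in the steps from late 2-cell to 4-cell (10), 4-cell to 8-cell (25) and morula to blastocyst (15). The rise into the early 2-cell stage, the fall after it and blastocyst against 1-cell held in 153 of 153 each. From late 2-cell to 4-cell, 2 rows were called, against 3 among rows above the level of silent genes (with the Zscan4f shared row, limma adjusted p = 0.0486), 1 with all rows of the table fitted, 0 by plain analysis of variance and 0 to 2 with 1 array left out. From 4-cell to 8-cell, 6 rows were called, against 2 by plain analysis of variance and 0 to 6 with 1 array left out. From morula to blastocyst, 7 were called, against 4 by plain analysis of variance and 3 to 7 with 1 array left out. Superovulation called 0 rows, against 1, Zscan4e, after centring on the brighter rows and among rows above the level of silent genes (limma adjusted p from 0.0365 to 0.195 over its alternatives), and 0 to 1 with 1 array left out. For the 10 most similar courses, rank correlation shared 1. With the level of silent genes taken from background control rows, 102 values instead of 100 of the members were above it.

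Over all rows, the count called from 1-cell to early 2-cell was 3886 higher and 3224 lower, against 3500 and 4042 after cyclic loess and 2895 and 4420 after centring on the brighter rows, which moved the median of all rows by -0.23. In the next step it was 3417 and 2783, against 2935 and 3523 after loess. Centring moved that median by -0.12 from morula to blastocyst and by -0.31 from 1-cell to blastocyst. Counts over all rows that moved by more than 1.5 times were those from MII to 1-cell (74, against 17 with all rows of the table and 9 by plain analysis of variance), late 2-cell to 4-cell (695, against 296, 149 and, above the level of silent genes, 1139), 4-cell to 8-cell (2273, against 1228 by plain analysis of variance), 8-cell to morula (589, against 280), 1-cell to blastocyst (14701, against 23037 with all rows) and superovulation (121, against 184 after loess, 383 after centring, 432 above the level of silent genes and 0 with all rows or by plain analysis of variance). At the late 2-cell stage the median Zscan4 difference between backgrounds was 1.01 as deposited, 0.84 after loess and 0.85 after centring, both chosen after seeing the data. From early to late 2-cell, Dppa2, Hdac1 and Dkc1 rose by 0.27, 0.53 and 0.52 after loess, against 1.19, 1.13 and 1.13 as deposited. Of 108 called values of the gene lists, 0 changed sign under loess or centring. Stage is a term of the fit, so the backgrounds were compared within stages, and the labels give no replicate numbers for a further block. With 1 array of a stage left out, the remaining one is assumed to vary like the others.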
